A study of Homo sapiens with 24 samples.

Results

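The respiratory chain subunits encoded in the nucleus were taken as all genes whose name was NDUFA, NDUFB, NDUFC, NDUFS or NDUFV with a number, COX5 to COX8 with the letter A, B or C, one of 8 UQCR names (UQCRB, UQCRH, UQCRQ, UQCRC1, UQCRC2, UQCRFS1, UQCR10 and UQCR11), COX4I1, or SDHA to SDHD. The rule used names only and selected 64 of the 58735 genes counted. Of these, 36 belong to complex I, 4 to complex II, 8 to complex III and 16 to complex IV, with NDUFA4 placed in complex IV, where its protein is known to sit. The series measured poly(A) RNA of OE33 and SK-GT-4, established lines from human esophageal adenocarcinoma, to ask which genes respond to chromosome missegregation and which of these responses need cGAS, a sensor of cytosolic DNA. Both lines were used as Cas9 control clones, which the labels call cGAS WT, and as clones in which CGAS had been knocked out with CRISPR-Cas9 (cGAS KO), so all groups carried Cas9. Each genotype of each line was treated for 48 hours with DMSO or with 500 nM reversine, which inhibits the mitotic kinase MPS1 (MPS1i). The 8 groups had 3 libraries each, 1 from each of 3 batches that the labels give. The labels name no clone, so the effect of losing cGAS and differences between clones cannot be told apart, and the replicates may be repeat cultures of 1 clone, so that p-values measure the spread between such cultures.

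The respiratory chain of the inner mitochondrial membrane passes electrons from NADH (complex I) and succinate (complex II) through complex III to complex IV, which reduces oxygen. Complexes I, III and IV pump protons, and ATP synthase uses the resulting gradient. Complexes I, III and IV combine subunits made from mitochondrial DNA with subunits made in the cytosol from nuclear genes and imported, while complex II is wholly nuclear. Promoters of nuclear subunit genes are known for binding sites of NRF1, of the ETS factor GABP (also called NRF2) and of YY1. Several complex IV subunits exist as a common form and as a form restricted to heart and muscle or testis.

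Total counts were between 15561268 and 25284177 per library. The 64 genes took between 0.463% and 0.683% of all counts in OE33 and between 0.620% and 0.908% in 10 of the 12 SK-GT-4 libraries. The other 2 SK-GT-4 libraries stood apart, with 1.61% in Cas9 MPS1i replicate 2 and 1.67% in cGAS KO DMSO replicate 1. In these, 53 and 54 of the 56 members with a mean count of at least 50 were above their mean over the line, and the median member deviated by 1.11 and 1.33 on the log2 scale. Other short transcripts moved with them: genes with under 2048 exonic bases deviated by a median of 0.67 and 0.93, and genes with over 8192 bases by -0.51 and -0.55. After a curve on gene length had been taken out of each library, the members still deviated by 0.74 and 0.93. The nuclear genes of ATP synthase deviated by 1.11 and 1.33 and cytosolic ribosomal protein genes by 1.12 and 1.30, while the 13 subunit genes of mitochondrial DNA deviated by -0.81 and -1.70. What part gene length had in this beyond the curve was not tested, and results that rest on these 2 libraries are given with and without them. CGAS, the targeted gene, was at 28.9 to 41.6 CPM (counts scaled to library size) in OE33 Cas9 and at 14.7 to 26.1 CPM in SK-GT-4 Cas9 libraries. It was at 2.31 to 2.82 CPM in 5 of the 6 OE33 cGAS KO libraries, at 15.6 CPM in replicate 2 of the group labelled OE33 cGAS KO DMSO, and at 2.22 to 6.09 CPM in SK-GT-4 cGAS KO libraries.

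The epithelial keratins KRT8, KRT18 and KRT19 were at 486 CPM or more in every library. EPCAM was at 528 to 895 CPM in OE33 and at 45.1 to 429 CPM in SK-GT-4, and CDH1 at 358 to 1028 CPM and 3.83 to 224 CPM. The mesenchymal marker VIM was at 0.155 to 2.56 CPM in OE33 and at 25.2 to 267 CPM in SK-GT-4. The leukocyte gene PTPRC was at no more than 0.163 CPM in any library. In bulk RNA, a change in the share of cells of a kind and a change in RNA per cell cannot be told apart.

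**Figure D1:**
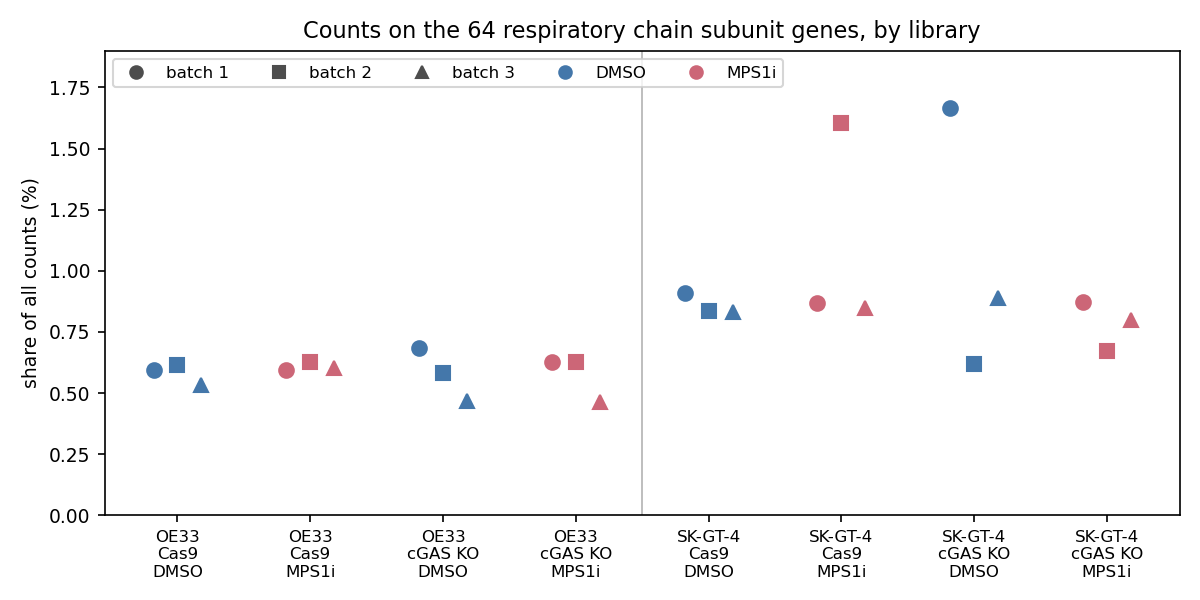
Share of all counts, in percent, taken by the 64 subunit genes in each of the 24 libraries, by group; colours mark the treatment and symbols the batch. SK-GT-4 Cas9 MPS1i replicate 2 (1.61%) and replicate 1 of SK-GT-4 cGAS KO DMSO (1.67%) lie above all other libraries, of which the highest is at 0.908%.

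Most subunit genes were abundant in both lines. Levels are compared between genes in TPM, which divide each count by the annotated exonic length before scaling to library size, and the values are medians of the 12 libraries of a line. In complex I the median gene was at 78.2 TPM in OE33 and 82.3 TPM in SK-GT-4. The highest was NDUFS5, an accessory subunit, at 714 TPM in OE33, and NDUFB7, an accessory subunit of the membrane arm, at 1340 TPM in SK-GT-4. In complex II, SDHA, the flavoprotein that oxidizes succinate, led in OE33 at 109 TPM, and SDHB, the iron-sulfur subunit, led in SK-GT-4 at 154 TPM. The membrane anchor SDHC was lowest in both by TPM, at 38.6 and 41.6. This rank rests on its length of 14160 bases in the deposited table, against 1902 exonic bases in the GENCODE v44 annotation. By median CPM, SDHC was at 160 in OE33 and 192 in SK-GT-4, above SDHB (68.7 and 113) and SDHD (57.7 and 93.3). It was above SDHA in SK-GT-4 (117 CPM) and below it in OE33 (286 CPM). In complex III, UQCRQ led in OE33 at 382 TPM and UQCR10 in SK-GT-4 at 504 TPM, both small accessory subunits. Its lowest members by TPM were UQCRB at 25.2 in OE33 and UQCR11 at 31.8 in SK-GT-4. UQCRB has a length of 9715 bases in the deposited table, and by median CPM in OE33 it was above UQCR11 (71.8 against 27.5). In complex IV, COX8A, the common form of subunit 8, was highest in both lines by TPM, at 1201 and 1166. The top ranks depend on length too: COX8A has 507 bases in the deposited table, NDUFS5 548 and NDUFB7 531. By median CPM, COX8A (189 in OE33 and 194 in SK-GT-4) was below COX4I1 (323 and 616). NDUFS5 (114) was below NDUFV1 (192) in OE33, and NDUFB7 (221) below NDUFB9 (297) in SK-GT-4. UQCRQ (167) was below UQCRC2 (327) in OE33, and UQCR10 (150) below UQCRC1 (386) in SK-GT-4. Across the 56 members with a mean count of at least 50, the levels of the lines had a Pearson's r of 0.933 and a Spearman's rho of 0.919. These are descriptions over genes that share libraries and lengths. Of the 56, 39 had the higher median in SK-GT-4 and 17 in OE33, and 32 and 34 of all members were above 100 TPM in OE33 and SK-GT-4.

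The isoforms of complex IV with restricted expression were near or at 0 in both lines. Summed over the 12 libraries of a line, COX6A2 (heart and muscle) and COX7B2 had 0 counts in both lines, which allows at most 3 counts in all. COX7A1 (heart and muscle) had 14 counts in OE33 and 12 in SK-GT-4, beside 27245 and 59871 for its common partner COX7A2. COX8C, known from testis, had 0 and 11 counts beside 46180 and 54418 for COX8A, and it lies inside the gene UNC79 on the same strand. COX6B2, the testis form of subunit 6B, was the exception, with 35 counts in OE33 and 636 in SK-GT-4, beside 29010 and 51781 for COX6B1. In SK-GT-4 the median level of COX6B2 was 1.09 TPM against 578 TPM of COX6B1.

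Of the complex I genes, 3 were counted at low levels. NDUFV2, a core subunit of the NADH-oxidizing module, had between 0 and 11 counts per library. NDUFA7 had between 0 and 23 counts. NDUFA13 had between 1 and 14 counts in OE33 libraries and between 42 and 136 in SK-GT-4 libraries. By the gene bounds in the count table, each of them overlaps another gene on its own strand: NDUFV2 overlaps AP005263.1, NDUFA7 overlaps AC010323.1, and NDUFA13 overlaps YJEFN3 and AC011448.1. The processed pseudogene NDUFV2P1 had 1095 counts in all against 104 for NDUFV2 itself. How the counting treated reads shared between overlapping genes or copies is not given in the sources used here, so these 3 levels are uncertain. Same-strand overlap was not particular to them. In GENCODE v44 they shared 28.4% (NDUFV2), 32.5% (NDUFA7) and 21.0% (NDUFA13) of their exonic bases with genes on the same strand. COX8A, the highest gene of complex IV by TPM, shared 35.4% and NDUFB8 33.8%. Of the 64 members, 24 overlap a gene on the same strand and 29 a gene on the opposite strand, and 25 overlap none. Pseudogenes named after a member are in the table for 33 members, and for 21 of them at least 1 read was counted. The highest was COX6A1P2, at 5352 counts or 10.3% of the 51878 of COX6A1.

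Promoters of 54 of the 64 members were found by symbol among RefSeq promoters of GRCh38.p14, from 250 bases before to 50 after the transcript start. In all, 13 of them (24.1%) held the core of the NRF1 motif, spelled GCGCA, any base and GCGC in a row, against 5.78% of all 35116 promoters. The ETS core CCGGAAG was in 15 (27.8%) against 10.3%, and the YY1 core, spelled AA, any base, ATGG and CGGC in a row, in 9 (16.7%) against 1.44%. Any of these was in 29 (53.7%) against 15.9% and none in 25. None of the 3 sets of letters contains another, and each was searched on both strands. A match describes letters and is not a measured binding site. The promoters of COX6B1, COX6B2 and SDHA are printed because the first pair holds the common and the restricted form of a subunit and because SDHA and COX6B2 differed between the lines, as given further on. Capitals mark matches, and each runs 5′ to 3′ on the strand of its gene. COX6B1 is at chr19:35648073-35648372 on the plus strand, COX6B2 at chr19:55354670-55354969 on the minus strand and SDHA at chr5:218070-218369 on the plus strand.
COX6B1: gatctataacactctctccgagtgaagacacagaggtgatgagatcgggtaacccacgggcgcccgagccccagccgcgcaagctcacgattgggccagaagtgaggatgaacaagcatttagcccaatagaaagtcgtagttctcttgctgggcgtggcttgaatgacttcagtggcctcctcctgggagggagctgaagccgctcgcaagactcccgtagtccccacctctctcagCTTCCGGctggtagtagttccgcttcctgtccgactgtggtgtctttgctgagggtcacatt
COX6B2: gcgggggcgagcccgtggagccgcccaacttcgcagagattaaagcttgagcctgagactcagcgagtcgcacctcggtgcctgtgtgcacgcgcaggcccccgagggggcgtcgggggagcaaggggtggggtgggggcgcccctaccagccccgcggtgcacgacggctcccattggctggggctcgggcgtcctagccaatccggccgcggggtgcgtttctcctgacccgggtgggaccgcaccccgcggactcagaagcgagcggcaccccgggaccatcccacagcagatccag
SDHA: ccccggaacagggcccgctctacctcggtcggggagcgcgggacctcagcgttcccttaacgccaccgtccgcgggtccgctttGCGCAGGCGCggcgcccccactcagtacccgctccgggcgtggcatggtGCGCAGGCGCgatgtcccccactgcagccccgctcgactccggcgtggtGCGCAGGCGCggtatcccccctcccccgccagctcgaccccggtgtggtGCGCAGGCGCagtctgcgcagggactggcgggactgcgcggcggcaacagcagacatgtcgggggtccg
The COX6B1 promoter held 1 ETS core, read on the opposite strand from 12 bases before the start. The COX6B2 promoter held none of the cores, and 72.0% of its bases were G or C. The SDHA promoter held the NRF1 core 4 times, at 166, 117, 68 and 19 bases before the start, with a constant spacing of 49 bases.

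**Figure D2:**
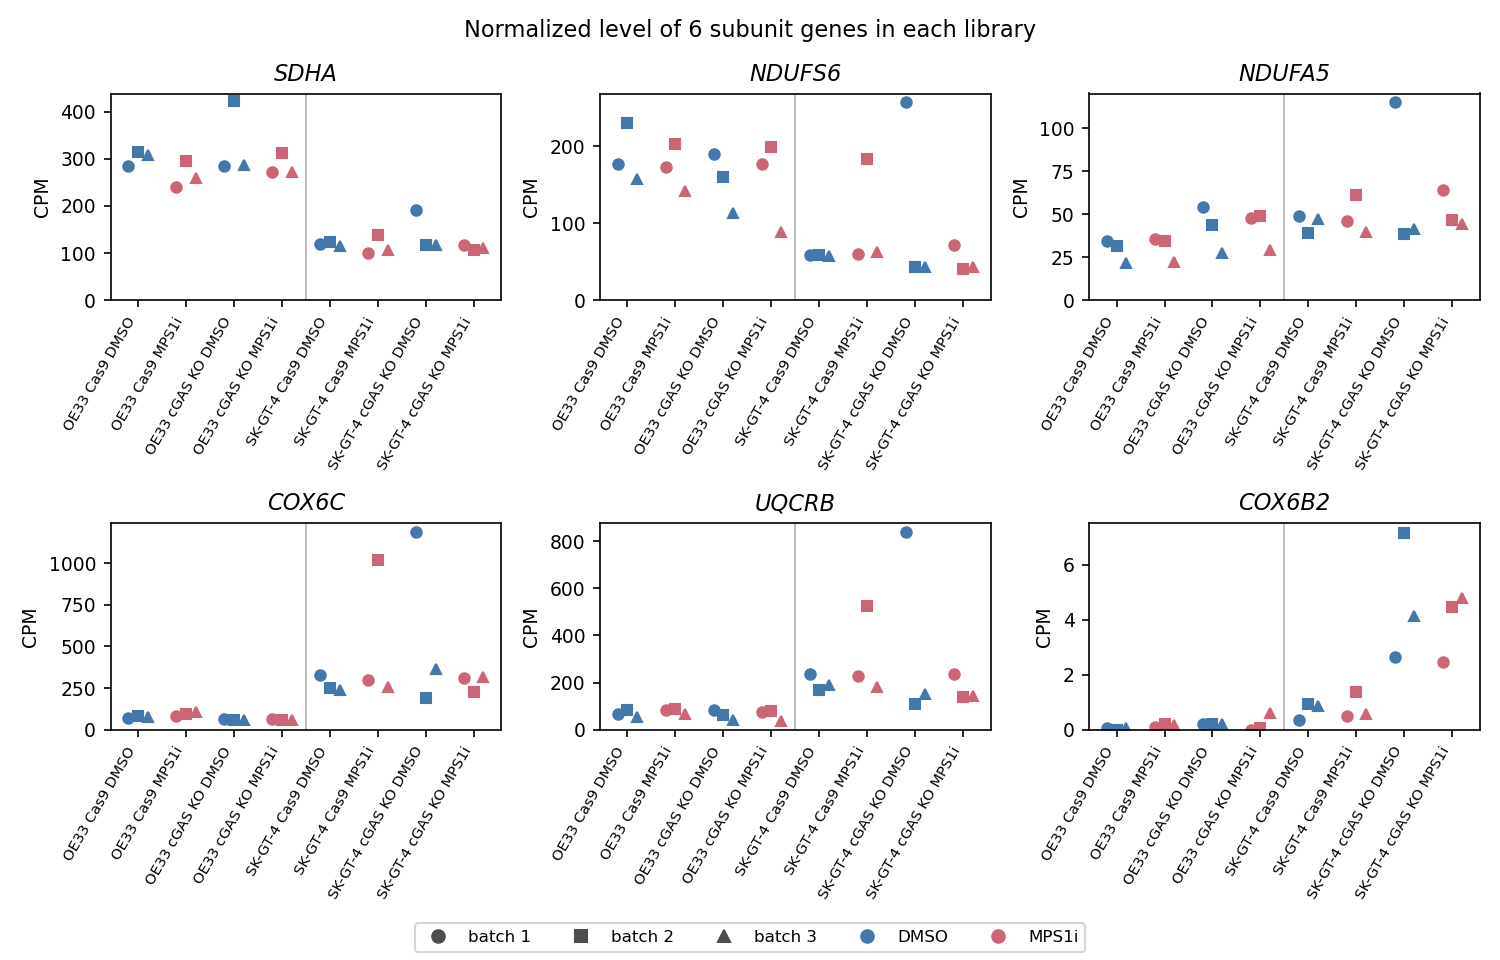
Normalized level in CPM (linear axes from 0) of 6 subunit genes in each of the 24 libraries, by group; colours mark the treatment and symbols the batch. Each point is 1 library, and the 2 SK-GT-4 libraries that stand apart are the high points in most SK-GT-4 panels, while COX6B2 is high in all 6 SK-GT-4 cGAS KO libraries (2.48 to 7.17 CPM) and SDHA in all 12 OE33 libraries (239 to 422 CPM).

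MPS1i did not change any subunit gene past the test in any of the 4 settings. This comparison addressed the response to missegregation of chromosomes. The test was the quasi-likelihood test of edgeR with the batch as a block. A gene counted as called when its p, adjusted over all tested genes by the Benjamini-Hochberg method, did not exceed 0.05. The filter on low counts kept 61 members in OE33 (not COX6A2, COX7B2 and COX8C) and 62 in SK-GT-4 (not COX6A2 and COX7B2). In OE33 Cas9 cells 0 of 61 members were called, where 0.00490% of the 20426 genes tested were. The members' median log2 difference was 0.09 and 41 were above 0, beside a median of 0.01 over all genes. Unadjusted p was under 0.05 for 3 members, beside 6.95% of all genes, and DESeq2 called 0. These were NDUFB8 and NDUFC2 of complex I and COX6C of complex IV, and the smallest adjusted p was 0.490.
NDUFB8 was at 8.33, 8.0 and 7.52 CPM in DMSO and at 15.5, 10.03 and 10.3 CPM in MPS1i, a log2 difference of 0.54 (SE 0.17). NDUFC2 was at 16.8, 16.8 and 15.8 CPM against 27.8, 19.1 and 21.5 CPM, a log2 difference of 0.43 (SE 0.14). COX6C was at 71.6, 81.8 and 76.9 CPM against 83.1, 92.7 and 108 CPM, a log2 difference of 0.27 (SE 0.12). In all 3 genes every MPS1i library was above every DMSO library. They were picked for their small p, and the share of all genes with such ranges was not computed. The separation therefore adds nothing to the test, which called none of them. In OE33 cGAS KO cells 0 of 61 were called (0% of all genes), with a median of -0.02 and 28 above 0. There 0 members had an unadjusted p under 0.05, beside 6.95% of all genes, and DESeq2 called 0. The difference of the MPS1i effect between the genotypes was called for 0 members (0% of all genes), and for 1, NDUFA13, at an unadjusted p under 0.05 (1.88% of all genes), with DESeq2 at 0. For these OE33 comparisons the share of all genes called by DESeq2 is not given here. Its counts of 0 members are therefore not set against other genes.

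In SK-GT-4 the MPS1i comparison rested on the 2 libraries that stand apart, which lie on opposite sides of it. In Cas9 cells 58 of 62 members were above 0 with a median log2 difference of 0.55, and in cGAS KO cells 4 of 62 with a median of -0.69, yet edgeR called 0 members in either, where 0% of all genes were called in each. DESeq2 also called 0 members in either, with 0.0395% of all genes called in Cas9 and 0% in cGAS KO cells. Unadjusted p was under 0.05 for 1 member (COX8C, at 0 to 3 counts per library) and for 0 members, beside 2.48% and 1.39% of all genes. By batch, the Cas9 medians were -0.11, 1.31 and -0.03, and the cGAS KO medians -1.42, 0.15 and -0.24. The large value in each was that of the batch with the library that stands apart. Without both libraries, the medians were -0.15 in Cas9 and -0.05 in cGAS KO cells. The difference between the genotypes had a median of 1.26 and called 0 members (0% of all genes). It had an unadjusted p under 0.05 for 2, NDUFA11 and COX6A1 (2.41% of all genes), and DESeq2 called 0, with no share of all genes given here. Without both libraries its median was -0.09.

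**Figure D3:**
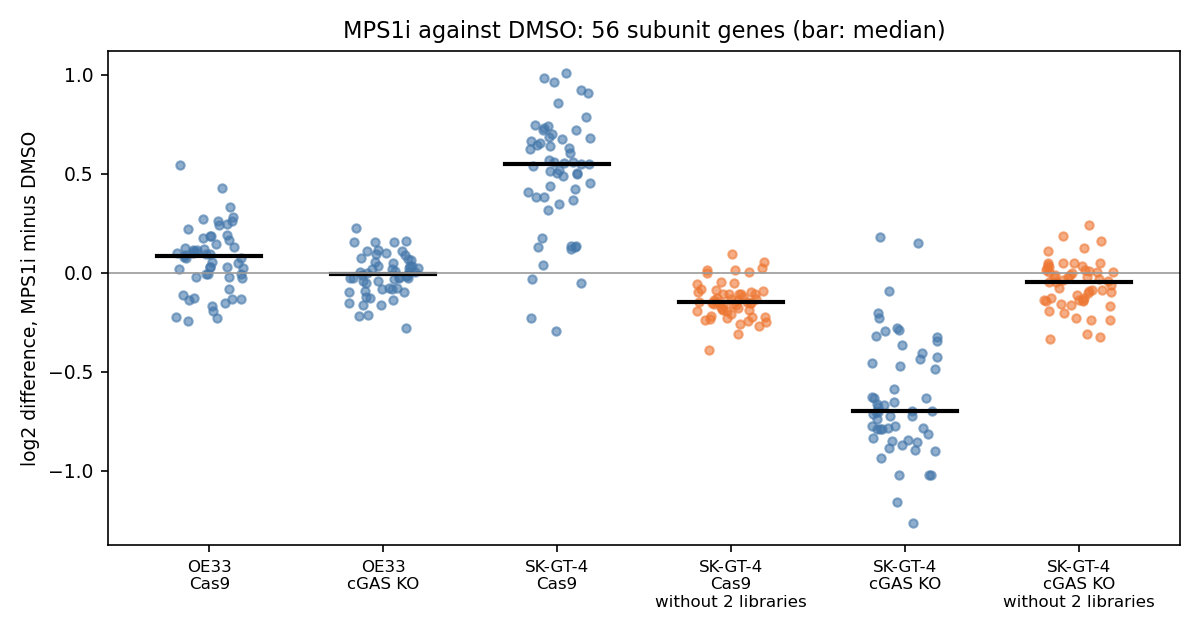
Log2 difference of MPS1i minus DMSO for the 56 subunit genes with a mean count of at least 50, in each line and genotype and, for SK-GT-4, also without the 2 libraries that stand apart; each point is 1 gene and the bars are medians. The SK-GT-4 points lie mostly above 0 in Cas9 and below 0 in cGAS KO cells with all libraries, and around 0 without the 2.

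**Figure D4:**
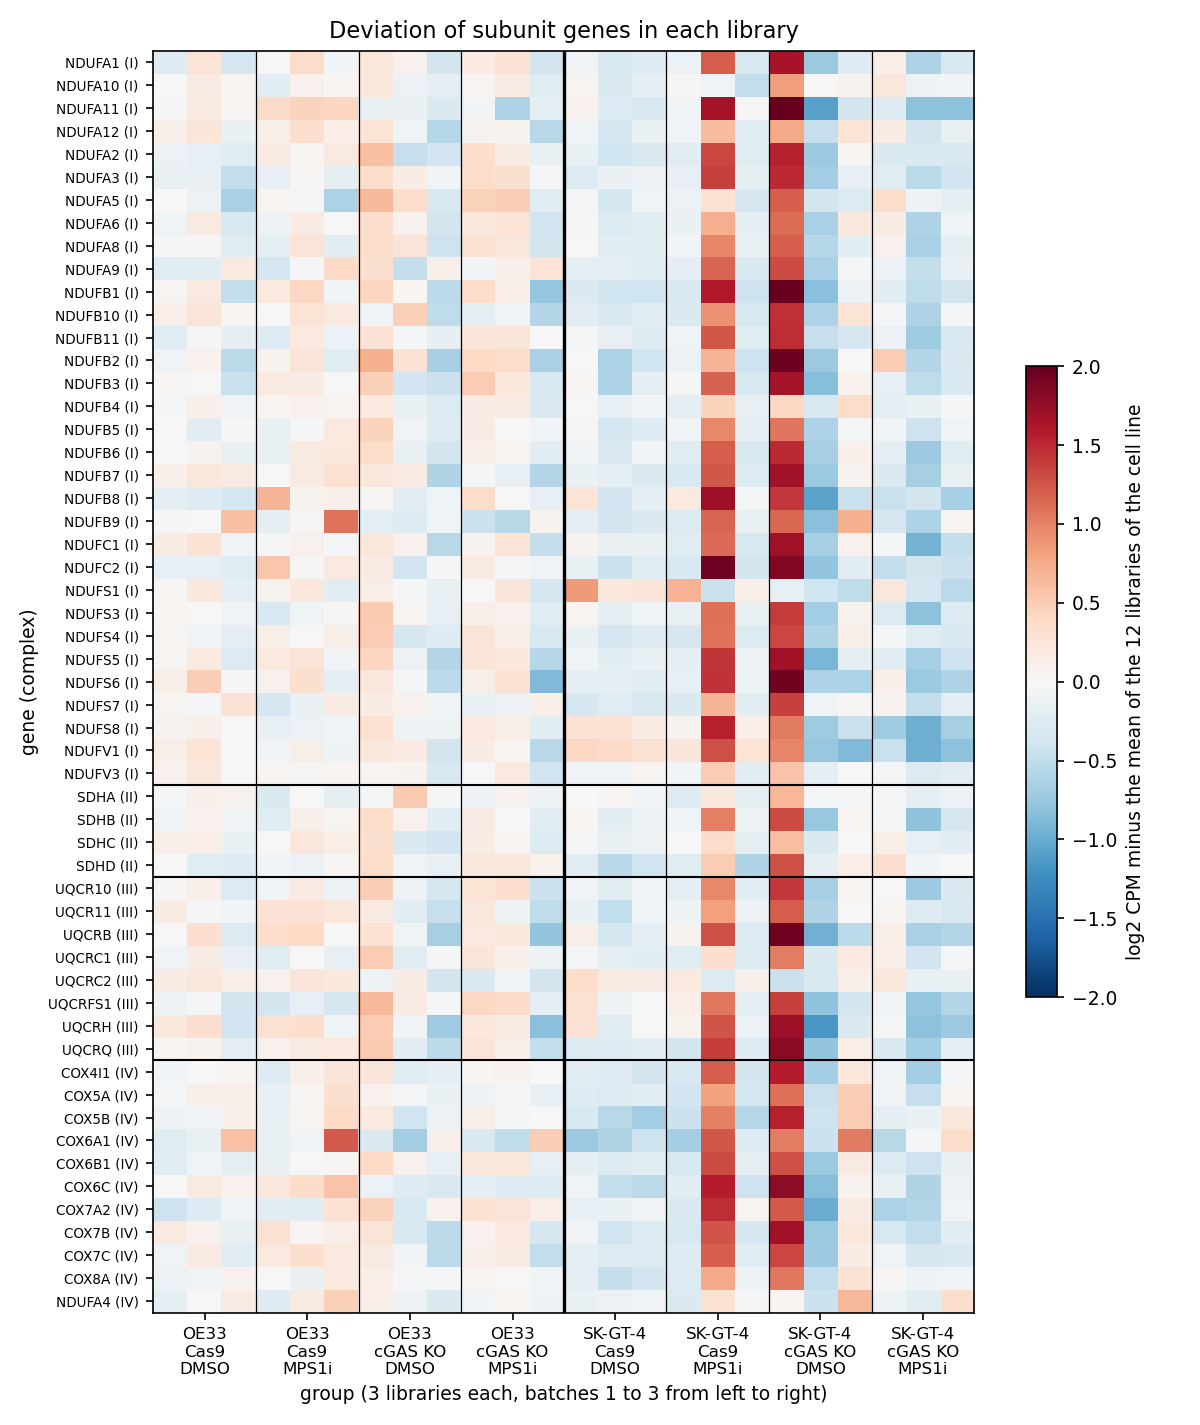
Deviation of subunit genes with a mean count of at least 50 (rows, with their complex, 1 gene not shown) in the 24 libraries (columns, 3 per group, batches 1 to 3 from left to right), as log2 CPM minus the mean of the 12 libraries of the line; red is above and blue below the mean. Nearly all rows are high in SK-GT-4 Cas9 MPS1i replicate 2 (53 of all 56 genes) and replicate 1 of SK-GT-4 cGAS KO DMSO (54 of 56), and none is above the mean in SK-GT-4 cGAS KO MPS1i replicate 2 (0 of 56).

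Between OE33 clones, few subunit genes differed and they went both ways. In DMSO, 1 of 61 members was called between cGAS KO and Cas9 cells, where 4.53% of all genes were (2.76% higher and 1.77% lower), and in MPS1i 6 were called, 2 higher and 4 lower, where 7.98% were (4.71% and 3.27%). The median log2 difference of the members was -0.05 in DMSO and -0.09 in MPS1i, beside -0.01 and -0.02 over all genes. Per batch, the medians were 0.30, -0.18 and -0.22 in DMSO and 0.14, -0.03 and -0.33 in MPS1i. CPM ranges of the genotypes did not overlap for 6 of 61 members in DMSO (9.84%, beside 12.1% of all genes tested) and for 9 in MPS1i (14.8%, beside 18.0%). With replicate 1, 2 or 3 left out of every group, 0 members were called in DMSO each time and from 0 to 5 in MPS1i, and without the batch block 0 were called in either.

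NDUFA5, an accessory subunit of the arm of complex I that reaches into the matrix, was called in both treatments. In DMSO it was at 34.7, 31.8 and 22.0 CPM in Cas9 and at 54.4, 44 and 27.6 CPM in cGAS KO libraries of batches 1, 2 and 3, a log2 difference of 0.46 (SE 0.12, adjusted p = 0.0385 by edgeR). In MPS1i it was at 35.9, 34.2 and 22.2 CPM against 47.6, 49.0 and 29.4 CPM, a log2 difference of 0.43 (SE 0.12, adjusted p = 0.0368 by edgeR). The ranges overlapped in both treatments, while cGAS KO was higher within each of the 3 batches. The call was lost with any 1 replicate left out (adjusted p from 0.114 to 0.185 in DMSO and from 0.0852 to 0.239 in MPS1i by edgeR), without the block (0.657 and 0.592), at the threshold of 0.01 and, in MPS1i, with offsets on gene length (0.0678).
UQCRFS1, the iron-sulfur protein of complex III, was at 92.5, 105 and 94.3 CPM in Cas9 MPS1i and at 158, 154 and 104 CPM in cGAS KO MPS1i libraries, a log2 difference of 0.47 (SE 0.14, adjusted p = 0.0481 by edgeR). Its difference in DMSO was 0.41 (SE 0.14, adjusted p = 0.113 by edgeR), and without the OE33 cGAS KO DMSO library with 15.6 CPM of CGAS it was 0.52 (adjusted p = 0.0255). NDUFA3 of complex I had 0.39 in DMSO (SE 0.12, adjusted p = 0.0786 by edgeR).

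The 4 genes that were lower in cGAS KO cells in MPS1i belong to complexes I, III and IV. COX6C, a small subunit of complex IV, was at 83.1, 92.7 and 108 CPM in Cas9 and at 62.8, 60.6 and 60.2 CPM in cGAS KO libraries, a log2 difference of -0.64 (SE 0.12, adjusted p = 0.00412 by edgeR). NDUFB9, an accessory subunit of complex I, was at 159, 182 and 381 CPM against 133, 122 and 189 CPM, a log2 difference of -0.65 (SE 0.16, adjusted p = 0.0203 by edgeR). The ranges were apart for COX6C and overlapped for NDUFB9, whose level in batch 3 was highest in both genotypes.
NDUFA11, an accessory membrane subunit of complex I, was at 13.8, 14.4 and 14.3 CPM against 10.2, 6.84 and 9.29 CPM, a log2 difference of -0.71 (SE 0.17, adjusted p = 0.0157 by edgeR). UQCRC2, a core subunit of complex III, was at 321, 364 and 353 CPM against 247, 288 and 236 CPM, a log2 difference of -0.45 (SE 0.12, adjusted p = 0.0266 by edgeR). In both genes all cGAS KO libraries were below all Cas9 libraries. In DMSO the 4 genes had differences of -0.34 (COX6C), -0.38 (NDUFB9), -0.29 (NDUFA11) and -0.30 (UQCRC2), and none of these 4 was called.

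The differences between OE33 clones ran with those of the genes around each subunit gene. For each member, the median log2 difference of the other tested genes within 5 Mb was taken. Over 56 members, the members' own differences and their neighbours' medians had a Pearson's r of 0.760 in DMSO and 0.730 in MPS1i, and 38 of 56 had the sign of their neighbours in each. These are descriptions, since nearby members share neighbours and all share the same libraries. COX6C, on chromosome 8 from 99873200 to 99894062, had 60 neighbours with a median of -0.30 in MPS1i, and NDUFB9, on chromosome 8 from 124539101 to 124580648, had 60 with a median of -0.49. NDUFA5, on chromosome 7 from 123536997 to 123558255, had 31 neighbours with a median of 0.34, beside its own 0.43. NDUFA11 was farther from its 258 neighbours, at -0.71 against -0.23, and COX6C itself was at -0.64. Other members in MPS1i did not have the sign of their neighbours or lay far from them. These were NDUFB2 (-0.01 against 0.45), COX7B (-0.20 against 0.21) and UQCRH (-0.37 against 0.01). In DMSO, COX7B was farthest, at -0.26 against 0.19. For the MPS1i comparisons of OE33, the same r was 0.168 in Cas9 and 0.475 in cGAS KO cells, with neighbour medians between -0.21 and 0.18.

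**Figure D5:**
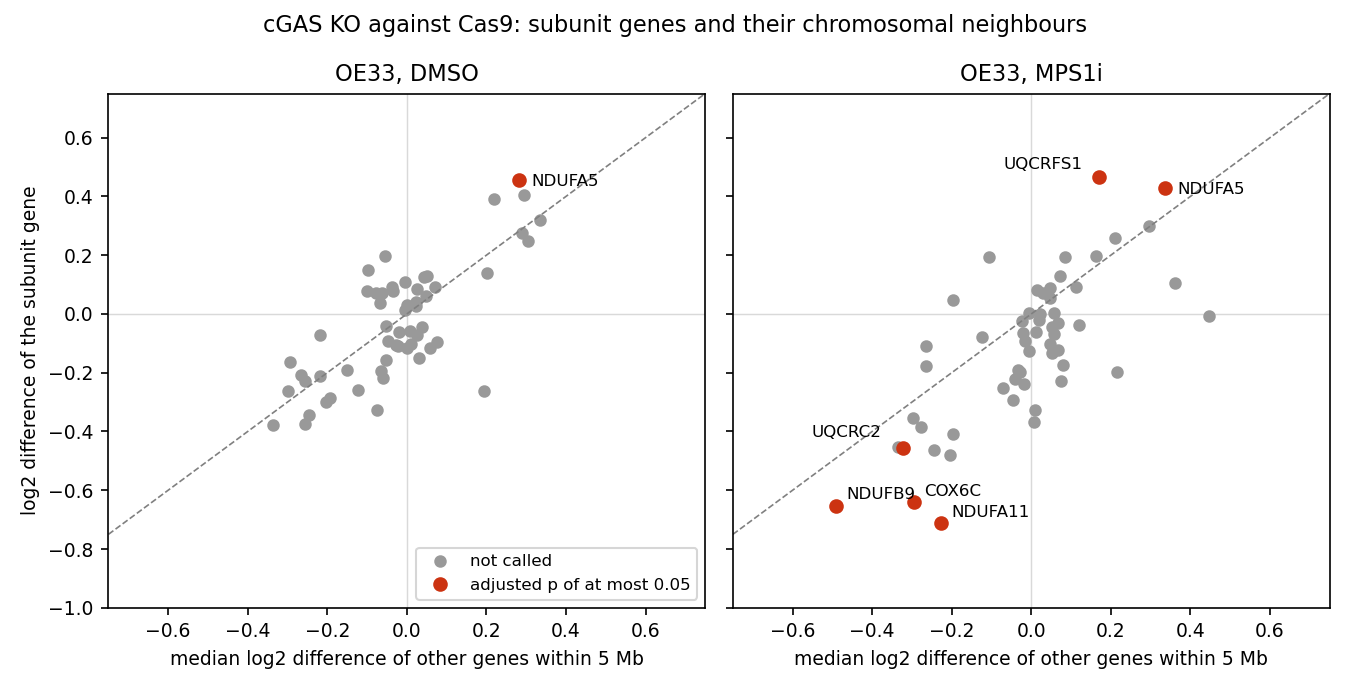
Log2 difference of cGAS KO minus Cas9 of each of 56 subunit genes in OE33 (vertical axis) against the median log2 difference of the other tested genes within 5 Mb (horizontal axis), in DMSO and in MPS1i. Red points passed an adjusted p of 0.05 (1 gene in DMSO and 6 in MPS1i), and the points rise from lower left to upper right with r of 0.760 and 0.730.

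Other genes of the pathway in the OE33 clones were counted over lists drawn up from general knowledge, with earlier results of these data known. Of all genes, 2.76% were called higher and 1.77% lower in DMSO, and 4.71% and 3.27% in MPS1i. Of the 17 ATP synthase genes, 1 was lower in DMSO, and 1 was higher and 1 lower in MPS1i. Of the 47 assembly factor genes, none was called in DMSO, and 1 was higher and 2 lower in MPS1i. CYC1, which encodes cytochrome c1 of complex III, was lower in MPS1i by a log2 difference of -0.61 (SE 0.16, adjusted p = 0.0305 by edgeR). Cytosolic ribosomal protein genes had 20 of 80 lower in MPS1i and 1 in DMSO, and glycolysis genes had 3 and 5 of 17 lower, among them ALDOA, LDHA and PFKM in both. None of the 13 subunit genes of mitochondrial DNA was called in either treatment.

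In SK-GT-4, COX6B2 was the only subunit gene that edgeR called between clones in the fit with all libraries and the batch block. DESeq2 called 3 members in DMSO, 1 higher and 2 lower, where 10.2% of all genes were, and 4 in MPS1i, 1 higher and 3 lower, where 10.5% were. In DMSO, 1 of 62 members was called, where 4.89% of all genes were (2.86% higher and 2.03% lower), and in MPS1i 1 of 62, where 4.47% were (2.48% and 1.99%). CPM ranges of the genotypes did not overlap for 7 of 62 members in DMSO, beside 20.8% of all genes tested, and for 10 in MPS1i, beside 23.0%. COX6B2 was at 0.358, 0.945 and 0.854 CPM in Cas9 DMSO and at 2.63, 7.17 and 4.14 CPM in cGAS KO DMSO libraries. In MPS1i it was at 0.516, 1.39 and 0.567 CPM in Cas9 and at 2.48, 4.47 and 4.81 CPM in cGAS KO libraries. All 6 cGAS KO libraries were above all 6 Cas9 libraries. The log2 difference was 2.65 in DMSO (SE 0.35, adjusted p = 0.00171 by edgeR) and 2.31 in MPS1i (SE 0.34, adjusted p = 0.00387 by edgeR). As a ratio of summed counts scaled by library size, this was 5.38 in DMSO (from 53 and 272 counts, 95% interval 4.0 to 7.37) and 4.93 in MPS1i (from 47 and 264 counts, 3.60 to 6.87), with intervals that cover counting error only. Its 253 neighbours had medians of -0.02 and -0.16. The call was lost when batch 3 was left out (2.86 and 1.98, adjusted p = 0.140 and 0.338 by edgeR). COX6B2 lies on chromosome 19 from 55349306 to 55354814 and shares 29.1% of its exonic bases in GENCODE v44 with AC020922.1 on the same strand. COX6B1, the common form, was at 159 to 169 CPM in Cas9 DMSO and at 115, 218 and 468 CPM in cGAS KO DMSO libraries, so COX6B2 stayed far below it. In OE33, COX6B2 had 2 counts over the 3 Cas9 DMSO libraries and 13 over the 3 cGAS KO DMSO libraries.

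The remaining members shifted together with the libraries that stand apart. With all libraries, 56 of 62 were above 0 in DMSO with a median log2 difference of 0.58, and 6 of 62 in MPS1i with a median of -0.67. Without both libraries, 10 members were called in DMSO, 4 higher and 6 lower, where 19.4% of all genes were, and 7 in MPS1i, 3 higher and 4 lower, where 17.1% were. NDUFV1, the flavoprotein of complex I that takes electrons from NADH, was at 246, 240 and 228 CPM in Cas9 DMSO and at 361, 109 and 100 CPM in cGAS KO DMSO libraries, of which the first is the library that stands apart. Without both libraries its difference was -1.14 in DMSO (adjusted p = 6.05e-07 by edgeR) and -0.97 in MPS1i (adjusted p = 9.79e-06). NDUFS8, an iron-sulfur subunit of complex I whose gene lies near that of NDUFV1 on chromosome 11, was at 274, 275 and 252 CPM against 462, 138 and 165 CPM. Its differences without both libraries were -0.82 in DMSO (adjusted p = 0.000343 by edgeR) and -0.86 in MPS1i (adjusted p = 0.000109). For both genes the cGAS KO libraries other than the one that stands apart were below the Cas9 libraries.
NDUFS1, the largest core subunit of complex I, was at 153, 97.9 and 101 CPM in Cas9 DMSO and at 75.5, 63.9 and 59.2 CPM in cGAS KO DMSO libraries. Its ranges did not overlap, and it was low in the library that stands apart as well. The difference in DMSO was -0.80 with all libraries (SE 0.23, adjusted p = 0.0792 by edgeR) and -0.71 without both (adjusted p = 0.00136). In MPS1i the ranges of NDUFS1 overlapped. Its Cas9 libraries were at 136, 61.6 and 92.9 CPM, of which the second stands apart, and its cGAS KO libraries at 99.2, 67.0 and 58.2 CPM. The difference in MPS1i was -0.36 with all libraries (adjusted p = 0.431 by edgeR). NDUFA13, at 42 to 136 counts per library, had -0.99 in DMSO with all libraries (adjusted p = 0.0936 by edgeR) and -1.08 without both (adjusted p = 0.00364). COX5B and SDHD were higher without both libraries in DMSO, by 0.60 (adjusted p = 0.0177 by edgeR) and 0.46 (adjusted p = 0.0482), and also in MPS1i. COX6A1, the common form of subunit 6A, was higher in DMSO by 0.79 (adjusted p = 0.000767 by edgeR), and UQCRH and UQCRFS1 of complex III were lower, with differences of -0.58 (adjusted p = 0.0177) and -0.52 (adjusted p = 0.0312). The fit without both libraries was chosen after the data were seen.

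Other genes of the pathway were counted between the SK-GT-4 clones in the same way. Of all genes, 4.89% were called in DMSO and 4.47% in MPS1i with all libraries. Without both libraries that stand apart, 19.4% and 17.1% were called. Of the subunit genes of mitochondrial DNA, with all libraries 2 of 13 (MT-CO2 and MT-ND3) were called higher in DMSO and 0 in MPS1i, with a median log2 difference of 0.94 in DMSO. Without both libraries, 13 of 13 were higher in DMSO (median 1.42) and 12 of 13 in MPS1i (median 0.88). The medians of several other lists changed sign with the choice of libraries. With all libraries in DMSO, 0 of 47 assembly factor genes were called (median log2 difference 0.21), 1 of 78 mitochondrial ribosomal protein genes was called, higher (median 0.24), and 0 of 17 ATP synthase genes were called (median 0.36). Without both libraries, assembly factor genes had 0 higher and 10 lower (median -0.17). Mitochondrial ribosomal protein genes had 3 higher and 14 lower (median -0.22), and ATP synthase genes 2 higher and 4 lower (median -0.30). Cytosolic ribosomal protein genes changed from 0 of 79 called (median 0.27) to 0 higher and 11 lower (median -0.33). A list of other subunits and isoforms changed from 0 of 5 called (median 0.47) to 1 higher and 0 lower (median -0.15). TFAM, which packages mitochondrial DNA and starts its transcription, was lower in DMSO with all libraries (log2 difference -0.80, SE 0.19, adjusted p = 0.0376 by edgeR). Epithelial markers moved with the genotype: CDH1, EPCAM, KRT8 and KRT19 were higher in cGAS KO cells in DMSO with all libraries, and all 5 listed without both. Their part in the subunit results was not tested.

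Between the lines, subunit genes of Cas9 DMSO cells differed in both directions, with SDHA and NDUFS6 among those higher in OE33 and COX6C, UQCRB, COX6B2 and NDUFA13 among those lower. Here 11 of 62 members were called, 3 higher and 8 lower in OE33, where 31.0% of the 25181 genes tested were (13.5% higher and 17.5% lower). CPM ranges of the lines did not overlap for 40 of 62 members (64.5%), beside 50.1% of all genes tested. The members' median log2 difference was -0.44, beside -0.14 over all genes. The spread in this fit included the 2 libraries that stand apart, although neither belongs to these groups, and without them 31 members were called, 5 higher and 26 lower, where 38.4% of all genes were.

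SDHA, on chromosome 5 from 218241 to 256700, was at 285, 314 and 309 CPM in OE33 and at 119, 124 and 114 CPM in SK-GT-4. The log2 difference was 1.34 (SE 0.23, adjusted p = 4.70e-05 by edgeR), and over all groups the 12 OE33 libraries lay between 239 and 422 CPM and the 12 SK-GT-4 libraries between 101 and 191 CPM. NDUFS6, an accessory subunit of complex I on chromosome 5 from 1801400 to 1816605, was at 176, 229 and 158 CPM against 58.6, 59.1 and 57.7 CPM, a log2 difference of 1.68 (SE 0.52, adjusted p = 0.0141 by edgeR). The ranges of both were far apart. The genes within 5 Mb of either, which are largely the same genes, had a median of 0.96 for each.
SDHB, the partner of SDHA in complex II, went the other way, at 64.4, 71.5 and 63.4 CPM in OE33 against 123, 104 and 113 CPM in SK-GT-4. It was called only without the 2 libraries that stand apart (-0.75, adjusted p = 0.00744 by edgeR). Among all members, NDUFB4 was the other gene called higher in OE33, at 105, 114 and 100 CPM against 74.1, 65.2 and 70.7 CPM (log2 difference 0.60, SE 0.22, adjusted p = 0.0429 by edgeR).

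COX6C was at 71.6, 81.8 and 76.9 CPM in OE33 and at 326, 249 and 238 CPM in SK-GT-4, a log2 difference of -1.82 (SE 0.47, adjusted p = 0.00410 by edgeR). UQCRB, a small subunit of complex III on chromosome 8 from 96225920 to 96235634, was at 67.2, 84.3 and 55.4 CPM against 237, 170 and 188 CPM, a log2 difference of -1.52 (SE 0.52, adjusted p = 0.0277 by edgeR). The ranges did not overlap in either gene. Their neighbours, in part the same genes, had medians of -1.11 and -0.83.
NDUFB7 of complex I was at 88.9, 96.5 and 93.5 CPM against 233, 226 and 209 CPM, a log2 difference of -1.26 (SE 0.43, adjusted p = 0.0271 by edgeR). NDUFA9 of complex I had -1.12 (SE 0.39, adjusted p = 0.0289 by edgeR), COX7A2 of complex IV -1.11 (SE 0.41, adjusted p = 0.0418) and NDUFA4 of complex IV -0.88 (SE 0.26, adjusted p = 0.0116). In all 4, each SK-GT-4 library was above each OE33 library. NDUFA9 differed from its 156 neighbours, whose median was 0.20.
COX6B2 and NDUFA13 rest on few counts in OE33. COX6B2 had 2 counts over the 3 OE33 and 53 over the 3 SK-GT-4 libraries, a ratio of 24.7 after scaling (95% interval 6.51 to 209). NDUFA13 had 11 and 354 counts, a ratio of 30.0 (16.6 to 60.7), and both were called by edgeR (adjusted p = 0.00156 for COX6B2 and 2.47e-07 for NDUFA13). For NDUFA13, whose gene overlaps YJEFN3, this is a difference in counted reads. Over 56 members, the log2 differences between lines had a Pearson's r of 0.731 with the medians of their neighbours, as a description over genes that share libraries and neighbours.

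In cGAS KO DMSO cells, 35 of 62 members were called between the lines, where 31.8% of all genes were (13.2% higher and 18.5% lower in OE33). Of these, 33 were lower in OE33 and 2 higher, SDHA and NDUFS1. CPM ranges did not overlap for 21 of 62 members (33.9%), beside 34.5% of all genes tested. The count of calls rested on replicate 1 of SK-GT-4 cGAS KO DMSO, without which 18 of 62 members were called, where 27.7% of all genes were. Without both libraries that stand apart it was 22, 4 higher and 18 lower, where 31.2% of all genes were. SDHA was at 284, 422 and 287 CPM against 191, 117 and 117 CPM, a log2 difference of 1.22 (SE 0.23, adjusted p = 0.000159 by edgeR). NDUFS1 was at 144, 129 and 118 CPM against 75.5, 63.9 and 59.2 CPM, a log2 difference of 0.98 (SE 0.27, adjusted p = 0.00725 by edgeR). Both had ranges that did not overlap. COX6C had the largest difference among members with a mean count of at least 50, at -3.23 with all libraries (SE 0.50, adjusted p = 1.77e-05 by edgeR) and at -2.20 without both. Without both, NDUFS6 (1.80) and NDUFV1 (0.81) were also higher in OE33.

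Other lists were counted between lines in the Cas9 DMSO cells, where 31.0% of all genes were called (13.5% higher and 17.5% lower in OE33). Assembly factor genes had 1 of 47 higher and 13 lower in OE33, mitochondrial ribosomal protein genes 2 of 78 higher and 12 lower, and ATP synthase genes 1 of 17 higher and 2 lower. None of the 13 subunit genes of mitochondrial DNA was called. Glycolysis genes went the other way, with 7 of 17 higher and 0 lower. Of 11 regulators, 3 were higher in OE33: the orphan receptor ESRRA (log2 difference 1.37), and the coactivators PPARGC1B (1.54) and PPRC1 (1.27), which are known to drive genes of mitochondrial respiration. NRF1, GABPA, GABPB1 and YY1, whose motifs were searched in the promoters, were not called.

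The effect of the genotype on subunit genes was compared between the lines directly. For cGAS KO against Cas9 in DMSO, edgeR called 0 of 62 members, where 3.22% of all genes were, 6 had an unadjusted p under 0.05, beside 13.5% of all genes, and DESeq2 called 2, where 7.03% of all genes were. Without both libraries that stand apart 5 members were called, where 10.1% of all genes were. These were COX6A1 (difference of the effects, OE33 minus SK-GT-4, -1.20, adjusted p = 0.00144 by edgeR), NDUFV1 (0.96, adjusted p = 0.00166), UQCRFS1 (0.90, adjusted p = 0.00365), NDUFS8 (0.74, adjusted p = 0.0146) and NDUFS1 (0.62, adjusted p = 0.0341). COX6A1 in OE33 was at 61.2, 46.3 and 80.6 CPM in cGAS KO against 63.4, 67.2 and 112 CPM in Cas9 libraries, which did not pass the test, and its SK-GT-4 libraries were at 245, 89.6 and 246 CPM in cGAS KO against 72.9, 79.1 and 90.1 CPM in Cas9. UQCRFS1 had effects of opposite sign in the lines, 0.41 in OE33 and, without both libraries, -0.52 in SK-GT-4. The difference of the MPS1i effect in Cas9 cells between the lines was called for 0 members (0% of all genes), with 0 at an unadjusted p under 0.05 (1.73% of all genes). DESeq2 called 0 members, with no share of all genes given here.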

How the data were processed

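Poly(A) RNA of 24 libraries was sequenced by the authors with paired 150-bp reads, mapped to GRCh38 with HISAT2 2.0.5 and assigned to genes with featureCounts 1.5.0. The raw counts that the authors deposited were used, without normalization or batch correction. The annotation release, the strand setting and the treatment of shared reads are not given in the sources used here. Members were chosen by gene name, and the members and lists were chosen with earlier results of these data known.

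Counts were analysed in R 4.3.3 with edgeR 4.0.16 (TMM factors, quasi-likelihood test, Benjamini-Hochberg adjustment over all genes). A gene was kept when it had 5 or more counts in all and was detected in 4 or more libraries. Each line was fitted with group and batch as terms (20426 genes for OE33, 22782 for SK-GT-4). The comparison of lines used 1 fit of the 24 libraries without a block, and effects between lines in a fit with batch within line (25181 genes in both). The biological variation between libraries had a coefficient of 15.0% for OE33 and 34.0% for SK-GT-4. The call was an adjusted p of at most 0.05, and the study's 0.01 was an alternative. The labels give the batch, and libraries of the same batch in DMSO and MPS1i deviated together across genes (6 correlations per line, 0.427 to 0.806 for OE33, 0.0772 to 0.747 for SK-GT-4). The fits were also run on simulated counts with no batch effect and no library that stands apart, so that run does not cover these features. Other alternatives were DESeq2 1.42.0, no filter, offsets from a loess on gene length, other blocks, and single libraries or batches left out. No pair of libraries of a group was a duplicate.

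CPM values use TMM factors over all 24 libraries, and TPM the gene length of the deposited table. Log2 CPM used a prior count of 2. Neighbours were other tested genes within 5 Mb. Intervals of count ratios are exact 95% intervals. The text names the members called in a comparison, those with the smallest p where fewer than 5 were called, the highest and lowest of each complex, the restricted isoforms and their partners, and members near to or far from their neighbours. SDHB was named after its values were seen. The promoters came from RefSeq (GRCh38.p14). Overlapping genes were found from the gene bounds in the deposited table. Shared exonic bases came from GENCODE v44, in which all 64 members were found and 21 had the bounds of the deposited table. Figures were drawn with Python 3.11.15, pandas 2.3.3 and matplotlib 3.10.9. The values of 1 member are not reported here by name.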

Additional observations from a re-analysis of the deposited data

How the results depend on the processing

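Of 154 counts of called members over all comparisons and alternatives, 110 stayed within 1.5 times the main count and 44 moved beyond it. The 110 include counts of 0 beside a main count of 0, so the tally does not measure how stable the other comparisons were. No named gene that was called changed its sign. MPS1i against DMSO and the differences of its effect called 0 members under every alternative run, with any replicate left out too. Most shares of all genes in those runs are not given here. The share of all genes called by the same rule stands in parentheses after a count. At the study's threshold of 0.01, the cGAS KO comparisons of OE33 called 0 (1.47%) members in DMSO and 1 (2.84%) in MPS1i, and the comparisons of lines called 4 (22.0%) in Cas9 and 21 (21.6%) in cGAS KO cells. DESeq2 called 2 (7.03%) in OE33 DMSO, 3 (10.2%) in SK-GT-4 DMSO, 4 (10.5%) in SK-GT-4 MPS1i and 2 (7.03%) for the difference of the cGAS KO effect between lines. Without the filter on low counts, 2 (5.95%) were called in OE33 DMSO, 2 (3.83%) in SK-GT-4 MPS1i, 22 (23.6%) between lines in Cas9 cells and 1 (2.67%) for the difference of the cGAS KO effect. Offsets on gene length gave 2 (6.97%) in SK-GT-4 DMSO, 2 (6.77%) in SK-GT-4 MPS1i, 22 (32.3%) between lines in cGAS KO cells and 1 (4.35%) for that difference.

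The replicate block pairs libraries of the same batch in the fit of each line. Without the replicate block, the cGAS KO comparisons of OE33 called 0 (0.274%) members in DMSO and 0 (0.352%) in MPS1i, while COX6B2 was still called in SK-GT-4 in both treatments (adjusted p = 0.0145 and 0.0371 by edgeR). A block on the batch number across lines called 16 (33.5%) members between lines in Cas9 and 36 (34.2%) in cGAS KO cells. A block per genotype and batch called 0 members for MPS1i in each line and genotype, with no share of all genes given here. Without OE33 cGAS KO DMSO replicate 2, the comparisons of OE33 clones called 3 (10.1%) in DMSO and 9 (13.2%) in MPS1i. Without SK-GT-4 Cas9 MPS1i replicate 2 alone, 6 (9.59%) were called in SK-GT-4 DMSO, 19 (32.8%) between lines in Cas9 cells and 3 (5.98%) for the difference of the cGAS KO effect. Without replicate 1 of SK-GT-4 cGAS KO DMSO alone, 4 (9.19%) were called in SK-GT-4 MPS1i, 24 (34.9%) between lines in Cas9 and 18 (27.7%) in cGAS KO cells. Without both, an alternative chosen after the data were seen, the counts were 10 (19.4%) in SK-GT-4 DMSO, 7 (17.1%) in SK-GT-4 MPS1i, 31 (38.4%) and 22 (31.2%) between lines in Cas9 and cGAS KO cells, and 5 (10.1%) for the difference. With replicate 1, 2 or 3 left out of every group, the counts ran from 0 to 0 (0.311% to 5.05%) in OE33 DMSO, 0 to 5 (0.547% to 4.85%) in OE33 MPS1i, 0 to 4 (0.0425% to 5.26%) in SK-GT-4 DMSO, 0 to 2 (0.0614% to 4.87%) in SK-GT-4 MPS1i, 5 to 8 (19.8% to 26.5%) and 12 to 39 (20% to 29.8%) between lines in Cas9 and cGAS KO cells, and 0 to 5 (0.205% to 4.97%) for the difference. The cause of these shifts was not tested.

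With 3 libraries per group and a coefficient of variation of 34.0% in SK-GT-4, small differences were not detectable there, and genes with few counts (COX6B2 in OE33, NDUFA7, NDUFV2, COX7A1 and COX8C) carry large counting error.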
